A study of Mus musculus with 15 samples.

Results

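Colq, Ccr6, Npnt and Aqp3 are 4 genes, of the 24015 in the deposited count table, whose transcript was much lower in skin regulatory T cells (Tregs) that carry floxed Rora alleles than in those that do not. They were selected on that measured fall, from outside the circadian clock genes and the genes next to Rora. The size of the fall is therefore given below as a description, without a p-value. The places of the 4 among the genes called between genotypes are likewise only a description. Each of the 4 was read in all 15 libraries and passed the filter on low counts, which left 13578 genes to test. No numerical limit is stated for the selection. In untreated skin Nt5e, which is not among the 4, differed by a log2 change of -2.66 ± 0.32 (SE), more than Npnt or Aqp3.

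The study sequenced RNA of Tregs from C57BL/6 mice to compare skin with lymph node, and floxed with unfloxed Rora, at rest and under inflammation. Wild-type (WT) mice were labelled Foxp3 cre-eyfp, and the conditional knockout (cKO) mice were labelled Foxp3 cre-eyfp Rora fl/fl. In both, the Treg transcription factor gene Foxp3 drives Cre and a yellow fluorescent protein, so all 5 groups carry the Cre and the reporter. The sort took CD45+CD3+CD4+YFP+ cells, with 3 biological replicates per group per the titles. WT and cKO Tregs came from untreated back skin with ears, and from ears after 4 applications of MC903, given every other day in ethanol. MC903 is a vitamin D analogue used to inflame mouse skin. The fifth group was WT Tregs from axillary lymph nodes (LN) that drain the skin, from untreated mice. Site moved with treatment (ears with or without back skin), and digestion moved with tissue (90 minutes for skin, none stated for LN). The p-values measure only the spread between these libraries.

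Rora encodes ROR-alpha, a nuclear receptor that binds DNA as a monomer and activates transcription, and the same DNA elements are bound by the REV-ERB repressors of the clock. The 4 genes encode unrelated proteins of the cell surface and its surroundings. Colq encodes the collagen tail that anchors acetylcholinesterase in the basal lamina of the neuromuscular junction. Ccr6 encodes the receptor of the chemokine CCL20, which draws T cells and dendritic cells to epithelia. Npnt encodes nephronectin, a basement membrane protein that is a ligand of integrin alpha8beta1. Aqp3 encodes an aquaglyceroporin, a channel that passes water and glycerol and is abundant in the basal epidermis.

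Promoter windows from RefSeq (build GRCm38.p6, 250 bases before to 50 after a start) are shown because the 4 genes were low together in cells with floxed alleles of a DNA-binding receptor. They matched 3 of the 4 genes, with 5 windows in all. The first window of each is printed 5′ to 3′ on the gene's strand, with capitals at each match to AGGTCA on either strand, together with the flanking letters of the longer ROR response element where those matched. The Ccr6 window lies at chr17:8235793-8236092 on the plus strand, the Npnt window at chr3:132950242-132950541 on the minus strand and the Aqp3 window at chr4:41098134-41098433 on the minus strand.
Ccr6: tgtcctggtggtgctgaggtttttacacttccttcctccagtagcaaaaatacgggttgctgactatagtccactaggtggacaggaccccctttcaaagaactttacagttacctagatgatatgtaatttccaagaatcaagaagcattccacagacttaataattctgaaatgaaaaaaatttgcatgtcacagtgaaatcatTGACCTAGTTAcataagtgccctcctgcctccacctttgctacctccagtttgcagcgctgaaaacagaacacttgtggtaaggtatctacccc
Npnt: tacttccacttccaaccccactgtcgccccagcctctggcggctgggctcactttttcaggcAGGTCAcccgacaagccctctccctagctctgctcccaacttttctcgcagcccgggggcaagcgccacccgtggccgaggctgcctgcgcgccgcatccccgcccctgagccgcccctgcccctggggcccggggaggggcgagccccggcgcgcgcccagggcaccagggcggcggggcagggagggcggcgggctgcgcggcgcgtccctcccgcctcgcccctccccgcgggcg
Aqp3: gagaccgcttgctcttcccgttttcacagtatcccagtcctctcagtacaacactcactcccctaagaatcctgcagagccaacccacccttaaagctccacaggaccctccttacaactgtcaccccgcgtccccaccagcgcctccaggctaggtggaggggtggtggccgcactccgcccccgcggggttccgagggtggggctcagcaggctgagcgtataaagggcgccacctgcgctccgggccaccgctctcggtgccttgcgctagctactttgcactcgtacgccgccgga
The Ccr6 window held the ROR response element as TAACTAGGTCA, read on the minus strand, with 33 bases between it and the start. Of 32851 windows of this length, 126 (0.384%) held that element. The shorter TAGGTCA and AGGTCA, which lie inside it, occurred in 2.61% and 16.3% of windows. The Npnt window held AGGTCA alone, 182 bases before the start. The Aqp3 window and the second windows of Ccr6 and Npnt held neither these letters nor TGGGTCA, which 3.98% of windows held. A match is a description of letters, not a site, and an absent match says only that these letters are not in this window.

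Libraries held 19.8 to 27.7 M counts, M being the mega prefix. Values are counts per M (CPM) of the TMM-scaled library size; they are not divided by gene length, so levels are compared within a gene only. Rora, the floxed gene, was read at 1327 to 1510 CPM in WT and 822 to 1199 CPM in cKO untreated skin, at 739 to 813 and 473 to 632 CPM in WT and cKO MC903 skin, and at 52.8 to 66.6 CPM in LN. No cKO library reached the WT libraries of its treatment, but neither difference passed edgeR's quasi-likelihood test (log2 -0.43 ± 0.15, adjusted p = 0.25, and -0.57 ± 0.15, adjusted p = 0.191). In MC903 skin it passed with DESeq2 (-0.56, adjusted p = 0.0288) and limma-voom (-0.61, adjusted p = 0.0176). Reads from a deleted and an intact exon are summed in such counts. All libraries expressed the T cell genes, with Cd3e at 772 to 1090 CPM in skin and 1318 to 1661 CPM in LN. Foxp3 stood at 110 to 202 CPM in skin and 16.2 to 41.8 CPM in LN, and none of 7 Treg and T cell markers differed between genotypes in either treatment by that test.

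In WT untreated skin the Colq level was 26.0, 40.4 and 31.9 CPM, and in cKO untreated skin 1.14, 2.03 and 0.625 CPM. The 3 WT libraries of MC903 skin gave 23.5, 31.5 and 40.8 CPM, and the 3 cKO libraries 2.12, 2.76 and 2.29 CPM. In LN the level was 19.5, 20.7 and 31.4 CPM. The 3 WT groups overlapped with each other, while every cKO library lay far below all of them, and the cKO libraries of MC903 skin lay above those of untreated skin without overlap. The fitted level in cKO was 3.85% of WT in untreated skin (log2 -4.70 ± 0.38, SE, n = 3 per group) and 7.49% in MC903 skin (log2 -3.74 ± 0.36). The cKO values rest on 16 to 57 counts per library, so the gene remained detectable. Skeletal muscle, where the ColQ protein is best known, left transcripts mainly in WT untreated skin replicate 2: 8 muscle markers sum to 112 CPM there and to 6.25 to 15.8 CPM in the other 14 libraries, with Myh4 at 0 in every skin library. That replicate had the highest Colq of its group, and without it the untreated difference was -4.52.

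Ccr6 stood at 107.7, 110.7 and 124.3 CPM in WT untreated skin, against 17.3, 11.7 and 6.68 CPM in cKO. In MC903 skin the WT libraries held 76.8, 102.7 and 101.5 CPM and the cKO libraries 2.55, 4.99 and 5.20 CPM. LN Tregs held 59.3, 63.1 and 108.5 CPM. The order of group means was WT untreated, WT MC903, LN, cKO untreated and cKO MC903, and only WT MC903 and LN overlapped among neighbours in that order. Fitted cKO levels were 10.4% of WT in untreated skin (log2 -3.27 ± 0.34) and 4.52% in MC903 skin (log2 -4.47 ± 0.36). LN replicate 3, the highest LN library for Ccr6 and for Colq, also had the most B cell transcripts: 5 markers sum to 584 CPM there, to 190 and 167 CPM in the other LN libraries and to 6.78 to 20.5 CPM in skin. Pax5 was at 0 in all skin libraries, and the part of B cells, which express Ccr6, in the LN values was not tested.

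Npnt followed the treatment as well as the genotype. WT untreated skin held 5.15, 4.47 and 5.60 CPM and cKO untreated skin 0.508, 1.90 and 1.87 CPM. WT MC903 skin held 30.9, 35.6 and 32.7 CPM and cKO MC903 skin 3.59, 1.84 and 6.34 CPM. LN Tregs were lowest, at 0.888, 0.285 and 0.816 CPM, or 9 to 26 counts. The WT MC903 libraries stood alone, and the groups below them in the order of means (WT untreated, cKO MC903, cKO untreated, LN) each overlapped with the next. The cKO level was 28.2% of WT in untreated skin (log2 -1.82 ± 0.49) and 11.9% in MC903 skin (log2 -3.07 ± 0.49). Its standard error was the largest of the 4 genes in both, and cKO values spread widely, with a coefficient of variation of 55.8% in untreated and 57.8% in MC903 skin against 11.3% and 7.17% in WT.

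Aqp3 had the smallest difference of the 4 in MC903 skin and in untreated skin. The WT libraries of untreated skin gave 44.01, 28.4 and 47.1 CPM, and the cKO libraries 11.2, 15.002 and 14.3 CPM. Under MC903 the values were 47.8, 40.1 and 41.8 CPM for WT, and 8.43, 10.7 and 16.4 CPM for cKO. The LN libraries gave 16.6, 20.2 and 14.5 CPM. Both WT skin groups overlapped with each other and lay above all other libraries, while both cKO skin groups and LN formed one overlapping range of 8.43 to 20.2 CPM. The cKO level was 33.9% of WT in untreated skin (log2 -1.56 ± 0.25) and 27.4% in MC903 skin (log2 -1.87 ± 0.25).

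**Figure D1:**
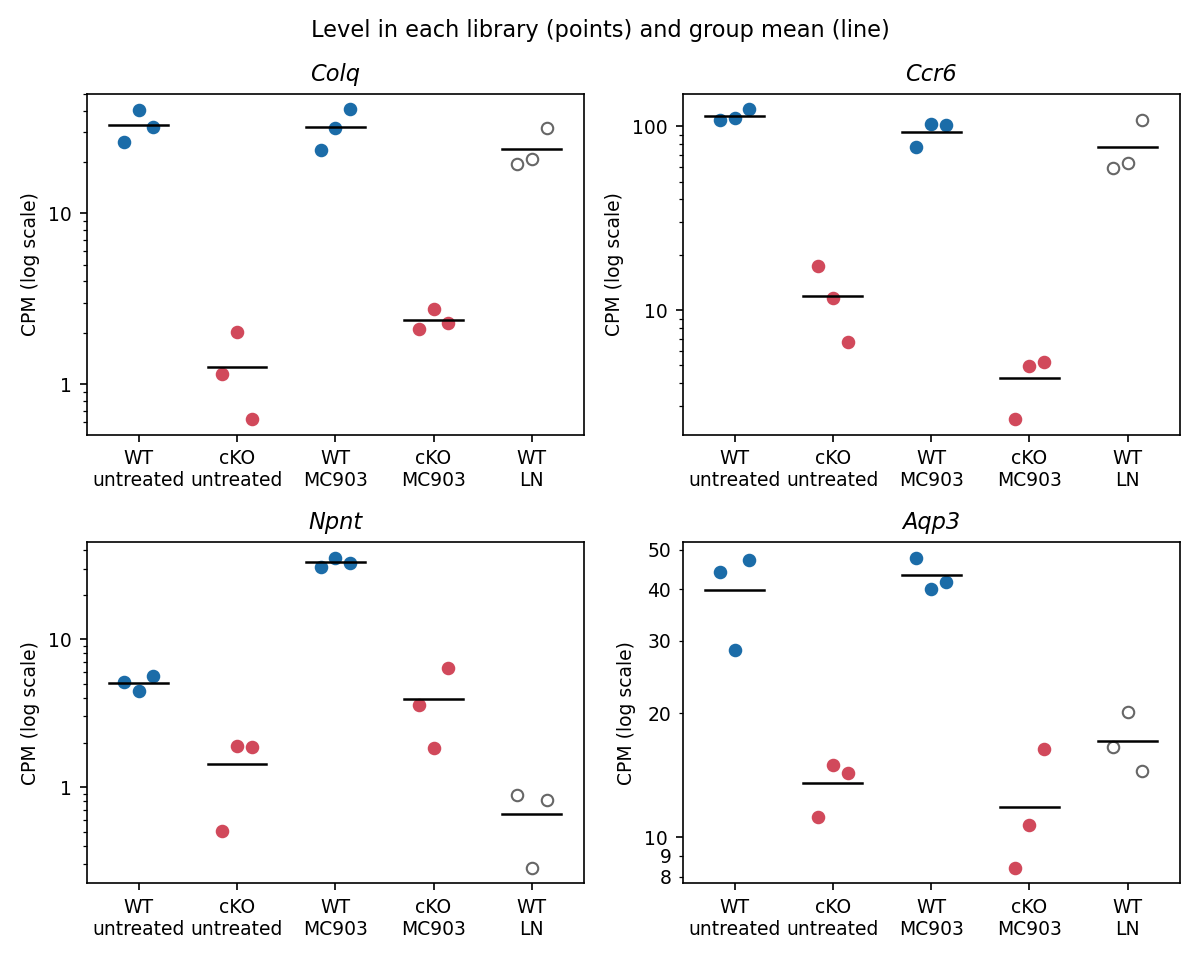
CPM (log axis) of each gene in the 15 libraries, as points, with the group mean as a line; blue is WT skin, red is cKO skin and open circles are WT LN. For each gene every cKO library lies below every WT library of the same treatment, and Npnt alone is far higher in WT MC903 skin (30.9 to 35.6 CPM) than in WT untreated skin (4.47 to 5.60 CPM).

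Transcripts of other skin cells were looked at because keratinocytes express Aqp3 and dermal cells can make matrix proteins such as nephronectin. In bulk libraries, fewer cells of a type and less RNA per cell cannot be told apart. The summed level of 12 keratinocyte markers was 295 to 669 CPM in WT and 236 to 437 CPM in cKO untreated skin, 102 to 439 and 48.8 to 217 CPM in WT and cKO MC903 skin, and 16.98 to 19.2 CPM in LN, where Krt15 and Trp63 were at 0. No marker was at 0 throughout a skin group. Of the 12, only Sfn, which encodes 14-3-3 sigma, passed the genotype test, lower in both treatments (log2 -0.76 ± 0.16, adjusted p = 0.0387, and -1.15 ± 0.17, adjusted p = 0.00341). The median log2 difference of the list was -0.17 in untreated and -1.18 in MC903 skin. Sfn alone stood at 217 to 306 CPM in WT and 130 to 172 CPM in cKO untreated skin. In MC903 skin it stood at 71.0 to 101 and 32.3 to 42.3 CPM. It was thus a large part of the sum in some libraries. Within WT MC903 skin the keratinocyte sums were 362, 102 and 439 CPM. Aqp3 was at 47.8, 40.1 and 41.8 CPM there, and Npnt at 30.9, 35.6 and 32.7 CPM. Within cKO MC903 skin the keratinocyte sums were 48.8, 55.6 and 217 CPM, with Aqp3 at 8.43, 10.7 and 16.4 CPM. Aqp3 thus had the replicate order of the keratinocyte sums in cKO MC903 skin, but not in WT MC903 skin or in either untreated group. The sums of 10 fibroblast and endothelial markers overlapped between genotypes, with Lum at 0 in LN. They were 95.2 to 180 CPM in WT and 45.7 to 211 CPM in cKO untreated skin. In MC903 skin they were 142 to 403 and 186 to 502 CPM. Within cKO MC903 skin they were 195, 186 and 502 CPM, with Npnt at 3.59, 1.84 and 6.34 CPM. Npnt had the replicate order of these sums there and in WT untreated skin, but not in cKO untreated or WT MC903 skin. The part of such cells in the Aqp3 and Npnt values was not tested. Sums of 2 other lists did not overlap in 1 treatment each. Macrophage, dendritic and Langerhans cell markers (9 of 10 in the table) came to 806 to 1307 CPM in WT and 945 to 1731 CPM in cKO untreated skin, and to 555 to 687 and 773 to 970 CPM in WT and cKO MC903 skin, with Clec9a at 0 in untreated skin. Gamma-delta T and innate lymphoid cell markers (6 of 12 in the table) came to 240 to 395 CPM in WT and 429 to 438 CPM in cKO untreated skin, and to 481 to 687 and 568 to 697 CPM in WT and cKO MC903 skin, with Ncr1 at 0 in all 4 skin groups. No tested gene of either list passed the genotype test, and their part in the differences of the 4 genes was not tested.

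Few genes were called between genotypes by edgeR's test. In untreated skin 0.405% of the 13578 tested genes were called lower in cKO and 0.398% higher, and 3 of the 4 genes, all but Npnt, were among the 55 called lower. In MC903 skin 0.177% were called lower and 0.081% higher, and all 4 genes were among the 24 called lower. Ranked by log2 change within those called, Colq, Ccr6 and Aqp3 were in places 2, 3 and 15 of 55 in untreated skin, and Ccr6, Colq, Npnt and Aqp3 in places 1, 2, 4 and 10 of 24 in MC903 skin. Every cKO library lay below every WT library for all 4 genes in both treatments, an arrangement found for 6.22% of tested genes in untreated skin and 8.19% in MC903 skin. The median log2 difference over the 4 was -2.55 in untreated and -3.41 in MC903 skin, beside medians near 0 over all tested genes (-0.00 and -0.01). Since the genes were chosen by this difference, these calls, places, counts and medians only locate them and are no test of the fall. Called lower in both treatments were 15 genes, 27.3% of the 55 and 62.5% of the 24, and 3 of these were Colq, Ccr6 and Aqp3.

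The genotype difference was then compared between treatments, a contrast that is orthogonal to the averaged genotype effect but not to the difference in each treatment. By edgeR's quasi-likelihood test the percentage of genes called for this interaction was 0, none of 13578. At an unadjusted p under 0.05 there were 765 genes, or 5.63% of those tested. That is close to the share this threshold gives without any effect. DESeq2 called 17 genes and limma-voom called 0. Colq, Ccr6, Npnt and Aqp3 were selected on the genotype differences compared here, so their values are given without a test. The difference in MC903 skin minus that in untreated skin was 0.96 ± 0.48 for Colq, -1.20 ± 0.45 for Ccr6, -1.25 ± 0.67 for Npnt and -0.31 ± 0.34 for Aqp3. Colq thus had a smaller deficit under MC903 and the other 3 a larger one, which is a description only. Intervals of 2 SE ran from 0.01 to 1.91 for Colq, -2.11 to -0.29 for Ccr6, -2.59 to 0.09 for Npnt and -0.996 to 0.38 for Aqp3. These intervals are adjusted neither for the number of genes tested nor for the selection.

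MC903 was compared with untreated skin over both genotypes, a contrast that weights WT and cKO alike on both sides and is orthogonal to the genotype difference. Npnt rose, by a log2 change of 2.08 ± 0.34 (adjusted p = 4.97e-04), a fitted 4.23-fold increase, and was higher in all 3 WT MC903 libraries than in any WT untreated one, whereas the cKO libraries of the 2 treatments overlapped. Ccr6 fell by 0.89 on the log2 scale (SE 0.23, adjusted p = 0.0107), to 54.1%. That averaged fall of Ccr6 lay mostly in the cKO libraries, whose low values chose the gene (values within genotypes below). Colq differed by 0.44 ± 0.24 (adjusted p = 0.189) and Aqp3 by -0.04 ± 0.17 (adjusted p = 0.91), and neither passed the test. In this contrast 12.8% of tested genes were called higher and 12.3% lower, so being called here is common. Within genotypes, given as values without a test, Npnt differed by 2.70 ± 0.49 in WT and 1.45 ± 0.49 in cKO. Ccr6 differed by -0.29 ± 0.31 in WT and -1.49 ± 0.34 in cKO, Colq by -0.04 ± 0.31 in WT and 0.92 ± 0.36 in cKO, and Aqp3 by 0.12 ± 0.24 in WT and -0.19 ± 0.25 in cKO. Ear and mixed skin cannot be told apart from treatment here.

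Skin was compared with LN as the mean of the 4 skin groups against LN, where 29.9% of tested genes were called higher in skin and 33.1% lower. That mean takes in the cKO libraries whose low values chose the 4 genes, so for these it is given without a test. It differed from LN by a log2 value of 3.06 ± 0.47 for Npnt, -1.67 ± 0.23 for Colq, -1.51 ± 0.22 for Ccr6 and 0.42 ± 0.20 for Aqp3. Except for Npnt, the fitted values of WT and cKO untreated skin lay on different sides of LN. For Colq and Ccr6 the WT untreated libraries overlapped those of LN, and for Aqp3 the cKO untreated libraries did. WT untreated skin stood above LN by 0.46 ± 0.31 for Colq, 0.57 ± 0.31 for Ccr6, 2.93 ± 0.52 for Npnt and 1.22 ± 0.25 for Aqp3. The cKO untreated skin differed from LN by -4.24 ± 0.37 for Colq, -2.70 ± 0.33 for Ccr6, 1.11 ± 0.51 for Npnt and -0.34 ± 0.24 for Aqp3. These within-genotype values share libraries with the selection and carry no test. The authors' deposited table, which sets LN against WT skin, lists log2 values of -0.48 ± 0.31 (SE) for Colq and -0.59 ± 0.30 for Ccr6. For Npnt it lists -2.65 ± 0.45 and for Aqp3 -1.23 ± 0.25. The values of Colq and Ccr6 were thus small beside their SE. The authors' p-values are left out, since WT skin libraries took part in the selection. The cKO Tregs of untreated skin thus held less Colq and Ccr6 transcript than LN Tregs, and their Aqp3 and Npnt levels overlapped those of LN.

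**Figure D2:**
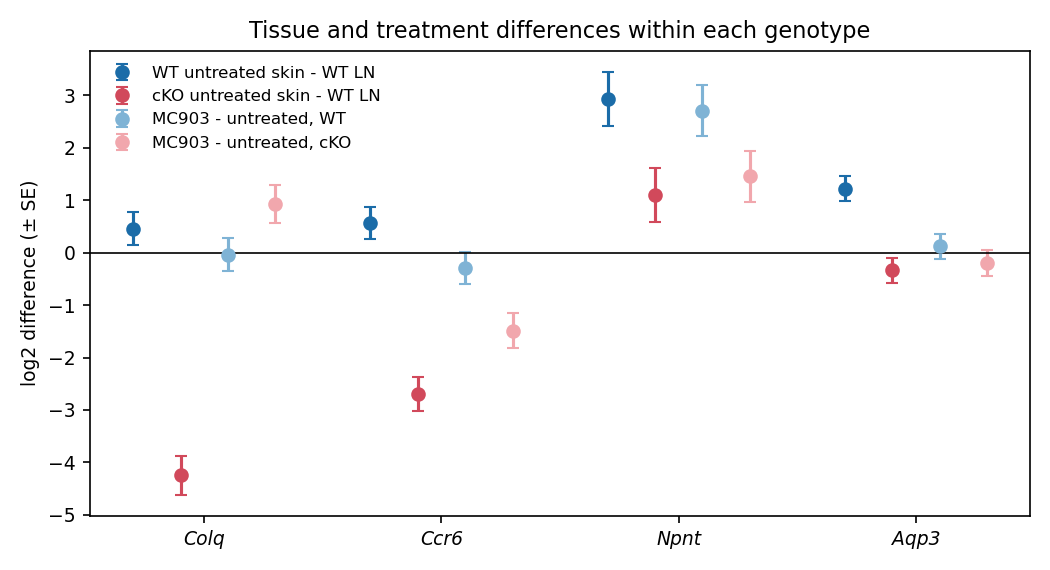
Log2 differences (points, bars ± SE, n = 3 libraries per group) of the 4 genes for untreated skin minus WT LN (dark, blue for WT and red for cKO skin) and for MC903 minus untreated skin (pale, same colours). Colq and Ccr6 sit slightly above 0 for WT skin and at -4.24 and -2.70 for cKO skin, and Npnt is above 0 in all 4 differences.

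The nearest tested genes on either side were examined to see whether the fall extended along the chromosome. In the RefSeq gene order, 2 tested neighbours on each side of each gene gave 16, and none was called in either treatment by edgeR's test. Their log2 differences ran from -0.51 to 0.56 in untreated skin and from -0.55 to 0.55 in MC903 skin. Colq lies between Eaf1 (0.09 ± 0.17 in untreated skin) and Hacl1 (-0.12 ± 0.45). Ccr6 lies between Fgfr1op (-0.01 ± 0.16) and Mpc1 (-0.31 ± 0.14), which encodes a mitochondrial pyruvate carrier subunit. Npnt lies between Tbck (0.08 ± 0.41) and Gstcd (0.06 ± 0.29). Aqp3 lies next to another aquaglyceroporin gene, Aqp7 (-0.29 ± 0.71), which was read at only 0.647 to 1.13 CPM in skin, and on its other side to Nol6 (0.10 ± 0.23). RefSeq places Gm33799, a long non-coding RNA, over Ccr6 and Gm23196, a small nuclear RNA, over Npnt. Neither has a row in the count table, and the counts cannot tell such overlapping transcripts apart.

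**Figure D3:**
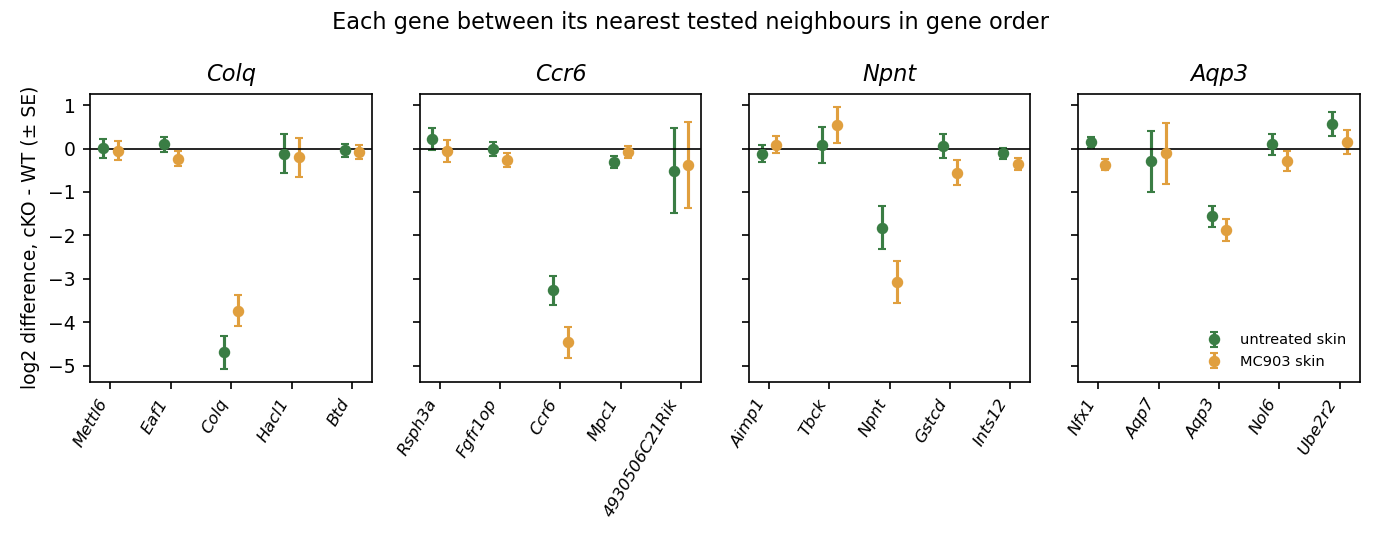
Log2 difference cKO minus WT (± SE, n = 3 libraries per group) of each of the 4 genes, in the middle of its panel, and of its 2 nearest tested neighbours on each side in gene order; green is untreated and orange MC903 skin. The middle gene is at -1.56 or lower in every panel, while the 16 neighbours lie between -0.55 and 0.56.

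The partners of each gene were then followed through lists of related genes, with edgeR's test over all genes. For Colq, 11 of 28 cholinesterase and cholinergic genes were expressed enough to test, and none was called between genotypes in either treatment (median log2 difference 0.02 in untreated and 0.13 in MC903 skin, beside -0.00 and -0.01 over all tested genes). Ache, the acetylcholinesterase that the ColQ tail anchors, was low, at 0.133 to 1.70 CPM in WT and 1.17 to 1.82 CPM in cKO untreated skin, and at 0.0374 to 0.389 CPM in MC903 skin. Under MC903, 2 of the 11 fell, Ache and the receptor subunit gene Chrnb1. The fall of Ache (log2 -2.94 ± 0.84, adjusted p = 0.0174) rests on 1 to 43 counts per library and was lost without WT untreated replicate 1 (adjusted p = 0.0592) or WT MC903 replicate 3 (0.0504). That of Chrnb1 (-0.63 ± 0.20, adjusted p = 0.033) was lost without WT untreated replicate 1 or 2, cKO untreated replicate 1 or 3, WT MC903 replicate 1 or 2 or any cKO MC903 replicate (adjusted p 0.0573 to 0.0792). Bche, the other cholinesterase gene, had 0 counts in all 15 libraries, and Chat, which makes acetylcholine, and Prima1, which encodes the membrane anchor of the same enzyme, had 0 in 14 of 15. A count of 0 allows up to 3 counts, 0.0941 to 0.161 CPM depending on the library. The transcript with the smallest p in untreated skin was Rapsn, a clustering protein of the acetylcholine receptor (-0.79 ± 0.37, adjusted p = 0.428).

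Of 23 other chemokine and migration receptors, 22 were tested, 1 rose and 1 fell in cKO untreated skin, and none passed in MC903 skin with edgeR (medians -0.12 and 0.09). Ccr3, the eotaxin receptor, had the smallest p in MC903 skin (1.13 ± 0.26, adjusted p = 0.116) and passed with DESeq2 (1.14, adjusted p = 0.00554), limma-voom (1.12, adjusted p = 0.0293) and the replicate number as a block (1.16, adjusted p = 0.0316). In untreated skin Ccr3 differed by 1.10 ± 0.26 (adjusted p = 0.0696 by edgeR's test). Gpr15, a receptor that brings T cells to the colon and skin, went the opposite way to Ccr6. It rose from 3.28 to 5.34 CPM in WT to 19.1 to 28.9 CPM in cKO untreated skin (log2 2.45 ± 0.28, adjusted p = 2.76e-04). Limma-voom put that difference at 2.52 with an adjusted p of 0.0561. Cxcr6, the receptor of CXCL16, fell from 454 to 799 CPM in WT to 251 to 360 CPM in cKO (-0.95 ± 0.21, adjusted p = 0.0438). The Cxcr6 call ended when any library except WT untreated replicate 2 or cKO MC903 replicate 1 was left out (adjusted p 0.0517 to 0.19) and with the replicate number as a block (0.0706). Under MC903, averaged over genotypes, 6 of the 22 rose and 4 fell, among them Gpr15 (2.83 ± 0.20, adjusted p = 3.58e-07) upward and Cxcr6 (-1.73 ± 0.15, adjusted p = 1.68e-06) downward. Averaged over genotypes, Ccr6 thus fell with MC903 as Cxcr6 did, while Gpr15 rose. Within genotypes Ccr6 differed by -0.29 ± 0.31 in WT and by -1.49 ± 0.34 in cKO, given without a test. Mean Cxcr6 was 611 CPM in untreated and 131 CPM in MC903 skin of WT, and 316 and 134 CPM in cKO.

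Ccr6 is a marker of type 17 T cells. Of 20 such genes 19 were tested. In untreated skin 2 were higher and none lower in cKO (median 0.14), and in MC903 skin none passed with edgeR (median 0.02). Those called were Il6st, the shared receptor subunit of the interleukin 6 family (1.05 ± 0.20), and Ahr, a ligand-activated transcription factor (1.13 ± 0.21), both with an adjusted p of 0.0153. Both calls ended without WT untreated replicate 2 or 3 or cKO untreated replicate 2 or 3 (adjusted p 0.0551 to 0.085). Il17a, a type 17 cytokine gene, differed by -1.67 ± 0.95 (adjusted p = 0.548) at rest and by 0.03 ± 0.91 (adjusted p = 1) under MC903. Il23r, the interleukin 23 receptor, had the smallest p in MC903 skin, with 4.19 to 6.13 CPM in WT and 0 to 0.970 CPM in cKO (-3.49 ± 1.02, adjusted p = 0.291). It passed with DESeq2 (-3.49, adjusted p = 0.0193) and limma-voom (-4.76, adjusted p = 0.0453). Ccl20, the ligand of CCR6, was read at 0 to 3.27 CPM over all libraries.

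For Npnt, 28 of 32 integrin and basement membrane genes were tested, 1 fell in cKO in each treatment and none rose (medians 0.17 and 0.06). Itgb3, the beta3 integrin chain, fell from 50.9 to 57.6 CPM to 18.4 to 22.1 CPM in untreated skin (-1.39 ± 0.17, adjusted p = 5.62e-04). Itga3, the alpha3 chain of a laminin receptor, fell from 37.1 to 54.0 CPM to 16.3 to 23.0 CPM in MC903 skin (-1.18 ± 0.23, adjusted p = 0.0467). The Itga3 call ended when any library except WT untreated replicate 2 or 3 or LN replicate 1 or 3 was left out (adjusted p 0.0513 to 0.236) and with the replicate number as a block (0.102). Itga3 in untreated skin (-1.02 ± 0.23, adjusted p = 0.053) and Itgb3 in MC903 skin (-0.76 ± 0.17, adjusted p = 0.0807) were also lower in cKO but were not called by edgeR's test. Itga8, the alpha8 chain of the nephronectin receptor, had 0 counts in 10 of 15 libraries and at most 14 counts, whereas its partner chain Itgb1 rose under MC903 with Npnt (1.17 ± 0.12, adjusted p = 1.13e-05), as did Itgb3 (1.25 ± 0.12, adjusted p = 4.60e-06). Over this list 6 genes rose and 4 fell under MC903, and 15 were higher and 2 lower in skin than in LN. Of all tested genes, 12.8% rose and 12.3% fell under MC903, and 29.9% were higher and 33.1% lower in skin. The 15 include genes of matrix proteins, which dermal cells can make. The fibroblast and endothelial markers had a median log2 difference of 4.64 between skin and LN. The part of such cells in these counts was not tested.

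Beside Aqp3, 18 of 25 aquaporin and glycerol metabolism genes were tested and none was called between genotypes (medians -0.01 and -0.11). The smallest p in untreated skin was that of Dgat1, a triglyceride synthesis enzyme, at 914 to 1043 CPM in WT and 702 to 753 CPM in cKO (-0.41 ± 0.10, adjusted p = 0.0829; 0.0043 by DESeq2). In MC903 skin it was that of Gpd2, the mitochondrial glycerol phosphate dehydrogenase (-0.53 ± 0.28, adjusted p = 0.795). The neighbouring aquaglyceroporin gene Aqp7 had an adjusted p of 0.927 in untreated skin. In skin against LN, 8 of the 18 were higher and 1 was lower, led by Dgat1 (4.89 ± 0.11, adjusted p = 1.12e-13) and Dgat2 (5.69 ± 0.23, adjusted p = 1.29e-11).

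**Figure D4:**
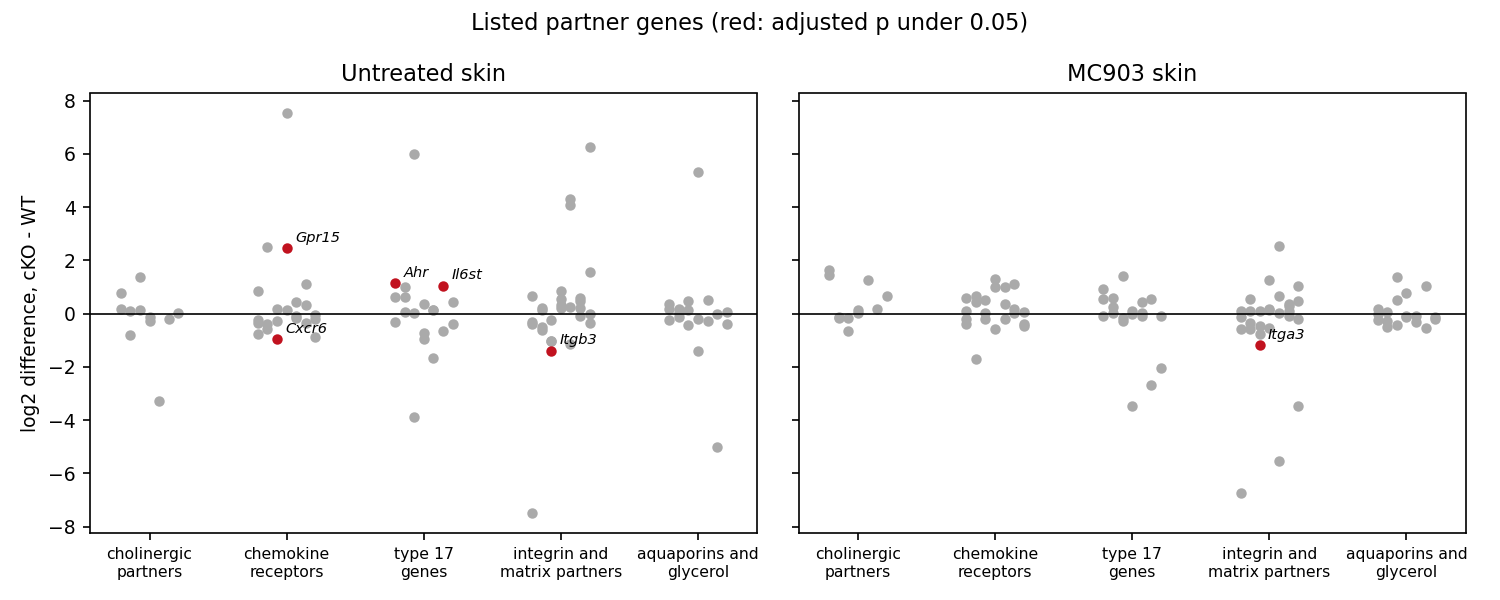
Log2 difference cKO minus WT of every tested gene of 5 lists, in untreated (left) and MC903 skin (right); each point is a gene, set side by side only for legibility, and red marks an adjusted p under 0.05. Of the genes past a log2 difference of about 3 none was called, and the genes in red lie between -1.39 (Itgb3) and 2.45 (Gpr15).

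Likeness of pattern was described by Pearson's r of log2 CPM over the 12 skin libraries, among 10008 genes. These libraries share the genotype and treatment differences, so r spans those differences. The genes most like Colq were Tnfrsf25, which encodes the death receptor DR3 (r = 0.984), Ndufv1 (0.955), Leo1 (0.939), Klhdc3 (0.938) and Arhgap31 (0.934). Those most like Ccr6 were Nebl (0.960), the clock activator gene Arntl (0.941), Rarg, a retinoic acid receptor (0.939), Spsb3 (0.939) and the clock repressor gene Cry1 (0.934). Aqp3 was closest to Arntl (0.963), Suv420h1 (0.946), Cry1 (0.932), Ccr6 (0.928) and Rbl2 (0.922). Npnt was closest to Rnf145 (0.903), Pygo2 (0.902), Stat5a (0.890), Marcksl1 (0.883) and Lysmd2 (0.880), none of which was among the 5 nearest of another of the 4. Among the 4, r was 0.900 for Colq with Ccr6, 0.894 for Colq with Aqp3 and 0.928 for Ccr6 with Aqp3, and 0.574 to 0.751 for Npnt with the others. All 4 were chosen as low in the cKO libraries, so a high r among them follows in part from that choice. With the 3 LN libraries added, the r of Colq with Tnfrsf25 was 0.966 and that of Aqp3 with Arntl 0.955, whereas that of Ccr6 with Nebl was 0.321 and that of Colq with Klhdc3 -0.07.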

How the data were processed

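Reads of 75 bp, single end, from a SMART-Seq v4 kit were aligned with TopHat2 2.0.6 to mm9, per the submitters' processing notes and the labels' protocols. How reads were assigned to genes is not given in the sources used here. The kit does not mark strand, so overlapping and antisense genes cannot be told apart. The authors deposited raw counts per gene, the only values the tests used. Per the file headers, their deposited LN against skin table holds the normalised signal averaged over libraries, log2 fold changes, their SE, a score (fold change over SE) and a p-value; they used DESeq2, per the submitters' processing notes.

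Counts were fitted in R 4.3.3 with edgeR 4.0.16 (filterByExpr over the 5 groups, TMM factors 0.903 to 1.26, robust quasi-likelihood F test, Benjamini-Hochberg adjustment over 13578 genes), 1 model over all 15 libraries. Calls are at an adjusted p under 0.05. Verbs of change are used for called genes. SE and intervals come from the fitted spread between libraries, whereas floors cover counting error only. PCR copies were counted without molecular identifiers. The members and the gene lists were chosen with earlier results of these data known. The members were selected on cKO against WT, so their p-values are given only for MC903 over both genotypes. Their places among the genes called lower in cKO come from the test over all genes and only locate them. The MC903 contrast is orthogonal to the genotype difference in each treatment, although it too holds the cKO libraries. The interaction is orthogonal only to the averaged genotype effect. Its p-values for the members would not be independent of the selection, so their values are given without a test. A test of the 4 skin groups against LN was also planned, but for the members its values are given without it, since the skin mean holds the cKO libraries. Named genes are the members, Rora and T cell markers, up to 3 called genes per list and contrast (or the 1 with the smallest p), the 5 genes most like each member (mean log2 CPM of 1 or more, prior count 2) and 2 tested neighbours per side, all by rule. Direct partners (Ache, Bche, Prima1, Chat, Ccl20, Itga8, Il17a, Aqp7), Sfn and Nt5e were named after their values were seen. Replicate numbers do not pair libraries: of 30 same-numbered pairs, 3 had deviations correlated above 0.1 (r -0.277 to 0.223). No 2 replicates agreed within sampling noise. Alternatives were DESeq2 1.42.0, limma-voom (limma 3.58.1) with sample weights, relative log expression factors, a filter of 1 count in all or of 50 counts in 3 libraries, a fit of the compared groups alone, a replicate block, and each library left out. The pipeline was tested on simulated data.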

Additional observations from a re-analysis of the deposited data

How the results depend on the processing

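In every alternative run, the 4 genes kept the sign of their genotype difference: between -5.21 and -4.37 (Colq), -3.64 and -2.98 (Ccr6), -2.08 and -1.42 (Npnt) and -1.75 and -1.42 (Aqp3) in untreated skin, and between -3.93 and -3.52, -4.64 and -4.20, -3.60 and -2.74, and -2.18 and -1.67 in MC903 skin. The calls of Npnt and Ccr6 under MC903 held throughout, that of Ccr6 being an average that lay mostly in cKO. For skin against LN, given without a test, Colq, Ccr6 and Npnt stood at -1.39, -1.14 and 3.28 without LN replicate 3, and Aqp3 at 0.47 with DESeq2, 0.42 with limma-voom and 0.34 to 0.56 with single libraries left out. Colq under MC903 ran from 0.28 to 0.70 and passed without cKO untreated replicate 2 (adjusted p = 0.0404). The cause was not tested.

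Counts of called genes moved more. In untreated skin the 109 genes became 323 with DESeq2, and 60 to 133 with single libraries left out. In MC903 skin the 35 became 140 with DESeq2, 104 with limma-voom and 22 to 52 with single libraries left out. The 0 of the interaction became 17 with DESeq2 and 0 to 1 with libraries left out. With the replicate number as a block, the counts were 90, 34 and 0, and 8372 (skin against LN) and 3125 (MC903), beside 8563 and 3412. The block ended the calls of Cxcr6, Itga3 and Chrnb1, added Ccr3 in MC903 skin (adjusted p = 0.0316) and changed no call of the 4 genes. Depth limits Npnt in LN, at 9 to 26 counts, and the direct partners at or near 0. With 3 libraries a group, intervals of the interaction are wide.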
